A study of Drosophila melanogaster with 12 samples.

Results

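Salivary glands in which an activated Ras and an RNA interference hairpin against lethal (2) giant larvae were expressed together (lglRNAi;RasV12-glands) were compared, gene by gene, with control glands (w1118-glands) of Drosophila melanogaster larvae. The members of the comparison were chosen by genotype and dissected part as the labels give them. They are the 3 whole-gland libraries of lglRNAi;RasV12 and the 3 whole-gland libraries of w1118, which make up 6 of the 12 RNA-seq libraries of the series. The 6 others are 3 whole-gland libraries of RasV12 alone, used below where a difference from w1118 is set beside a test against RasV12, and 3 libraries of one part of lglRNAi;RasV12-glands, used in the shared estimate of the spread and, for 1 gene, in the closing observations.

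The study asked how a secretory epithelium adapts to continuous growth signalling before its cells fall apart. By the labels, females carrying w1118,BxGal4 and a Drs-GFP reporter were crossed to males carrying w1118;UAS-l(2)glRNAi;UAS-RasV12 for lglRNAi;RasV12-glands, w1118;;UAS-RasV12 for RasV12-glands and w1118 alone for w1118-glands. Every group, the control included, carried the BxGal4 driver, an enhancer trap active across the secretory epithelium. The labels give the Drs-GFP reporter to every group, whereas the list of crosses published with the study names it for the lglRNAi;RasV12 cross and not for the RasV12 and w1118 crosses. If the published list holds, the reporter and its chromosome cannot be told apart from the lglRNAi;RasV12 genotype. All larvae grew at 29°C on food with antibiotics and were dissected as 3rd instar larvae 96 h after egg deposition (AED). Each replicate was a pool of glands from many larvae, dissected as a separate biological replicate, so p-values measure the spread between such pools.

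The larval salivary gland is a tube of very large polyploid cells that grow without dividing. Late in larval life the gland makes and stores the glue proteins, glycosylated secretory proteins that fix the pupal case to a surface, and then secretes them under the control of the steroid hormone ecdysone. Ras85D is a small GTPase that passes signals from receptor tyrosine kinases such as Egfr to a cascade of kinases ending in the MAP kinase rolled. The product of l(2)gl is a cytoskeletal adaptor that restricts the apical domain of epithelial cells, and its loss together with activated Ras is a classical model of invasive overgrowth in dividing Drosophila tissues.

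The files held estimated counts per transcript, which were summed per gene, and levels are given as CPM, the counts of a gene scaled to a fixed library total after TMM scaling. TMM corrects each library for a few genes that take a large share of its counts. Summed counts were 30516609 to 48540724 per library in lglRNAi;RasV12-glands and 27584224 to 35658020 in w1118-glands. The 20 most abundant genes took 23.2 to 23.3% of the counts in lglRNAi;RasV12-glands and 39.9 to 47.4% in w1118-glands. The gland label was met in all 6 libraries, since Sgs3, Sgs1 and the gland regulators fkh, CrebA and sage were all detected, as described below. Log2 CPM values correlated across genes at 0.9787 to 0.9929 within lglRNAi;RasV12-glands, at 0.9784 to 0.9844 within w1118-glands and at 0.9151 to 0.9412 between them. Of the lglRNAi;RasV12 libraries, replicate 1 stood a little apart from the others, and results that rest on it are given with and without it. A number that ends the deposited library names was the same in all libraries of a genotype and differed between the 2 genotypes. Its meaning is not stated, so whatever it stands for cannot be told apart from genotype.

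Of 13825 genes, 9012 had enough counts to be tested and 4813 did not. A gene was called when its log2 fold change was at least 1 in size and its adjusted p at most 0.05 (the quasi-likelihood test of edgeR, adjusted by the Benjamini-Hochberg procedure over all tested genes, used for every adjusted p below). In lglRNAi;RasV12-glands 1088 genes were called higher and 709 lower than in w1118-glands, which is 12.1% and 7.87% of the tested genes and 19.9% in either direction. With no limit on the fold change, 28.2% of the tested genes (2539) passed the adjusted p in the higher direction and 23.5% (2116) in the lower. These shares apply to every list compared with w1118-glands below. Counts of called genes are to be read beside 12.1% and 7.87%, and counts by the adjusted p alone beside 28.2% and 23.5%. The 3 and 3 libraries did not overlap for 1080 of the genes called higher and 691 of those called lower, beside 58.9% of all tested genes. Changes of 16-fold or more were reached by 95 genes called higher and 36 called lower. The median log2 fold change over all tested genes was 0.02. It became 0.43 when libraries were scaled by their total counts, and the share of higher among the called genes was then 83.3%, beside 60.5% under TMM, and the median of a gene group is given under both scalings where its sign turns. In bulk samples fewer cells of a type and less RNA per cell cannot be told apart.

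**Figure D1:**
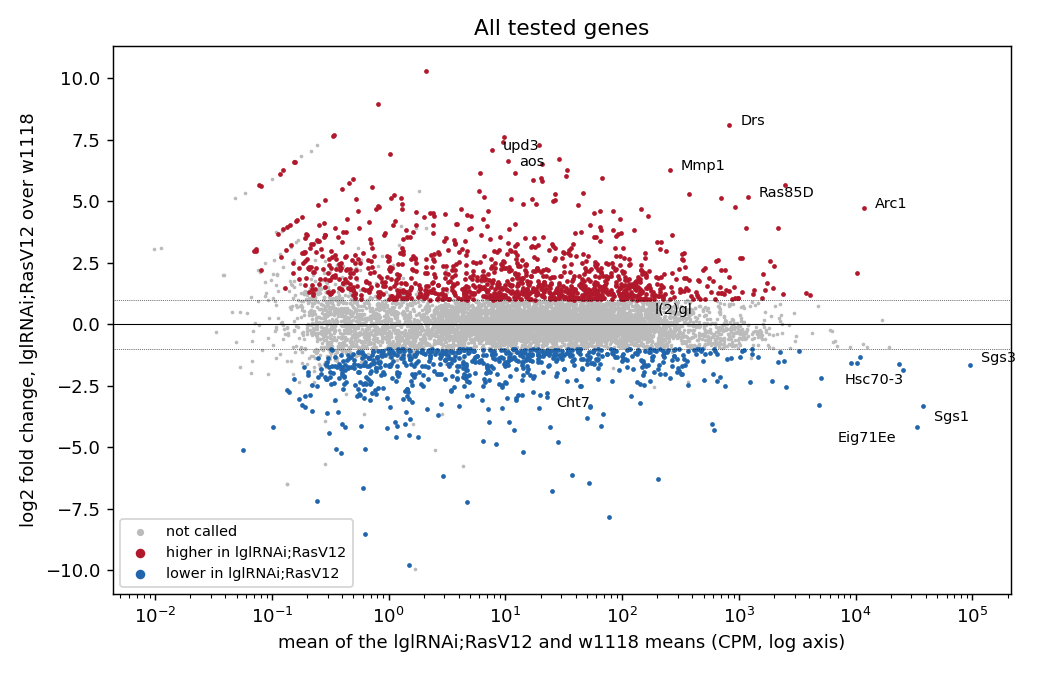
Each point is 1 of the 9012 tested genes, with its level in CPM on a log axis (the mean of the means of 3 lglRNAi;RasV12 and 3 w1118 libraries) and its log2 fold change, lglRNAi;RasV12 over w1118. Red points are the 1088 genes called higher, blue points the 709 called lower and grey points those not called; dotted lines mark log2 fold changes of 1 and -1, and the most abundant genes on the right, led by Sgs3, lie on the lower side.

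The targeted genes were checked first. Ras85D (FBgn0003205, 3R:9510561-9513067) stood at 2042, 2426 and 2524 CPM in lglRNAi;RasV12-glands, against 75.1, 54.3 and 62.4 CPM in w1118-glands (log2 fold change 5.19 ± 0.16, adjusted p = 2.7e-09). The groups were far apart, and since reads were assigned to annotated transcripts, this level includes reads from the RasV12 transgene. l(2)gl (FBgn0002121, 2L:9839-21376) stood at 191, 148 and 162 CPM in lglRNAi;RasV12-glands, against 156, 140 and 189 CPM in w1118-glands (log2 fold change 0.05 ± 0.14, adjusted p = 0.81). Its library values overlapped, so a lower l(2)gl mRNA level was not detectable in lglRNAi;RasV12-glands by gene-level counts, and reads of the hairpin that match the gene cannot be told apart from its mRNA. RasV12-glands had 264, 244 and 286 CPM, and against them l(2)gl was lower by less than the fold limit (log2 fold change over RasV12 -0.66 ± 0.14, adjusted p = 0.0132).

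RNA of the gland's own products fell. Of the 8 glue protein genes, 7 were called lower in lglRNAi;RasV12-glands, beside 7.87% of all tested genes, and the list had a median log2 fold change of -1.77 (-1.35 under library-size scaling). Together these 8 genes took 9.51, 10.7 and 11 percent of all counts in the lglRNAi;RasV12 libraries, against 38, 27.4 and 30 percent in the w1118 libraries. The fall was uneven within the family. Sgs3, a mucin-like glue protein and the most abundant transcript of the gland (3L:11512221-11513402), stood at 42140, 45970 and 49614 CPM in lglRNAi;RasV12-glands, against 192539, 116394 and 129806 CPM in w1118-glands (log2 fold change -1.67 ± 0.25, adjusted p = 0.000161). Sgs1, a longer mucin-like glue protein (2L:4937409-4941423), stood at 5569, 8090 and 6720 CPM in lglRNAi;RasV12-glands, against 85164, 62422 and 58493 CPM in w1118-glands (log2 fold change -3.34 ± 0.21, adjusted p = 3.5e-07). Eig71Ee, a glue gene of the ecdysone-induced cluster at 71E (3L:15654472-15656010), dropped furthest, to 2579, 3927 and 3789 CPM in lglRNAi;RasV12-glands, against 75047, 54528 and 59778 CPM in w1118-glands (log2 fold change -4.20 ± 0.24, adjusted p = 1.82e-07). In none of these genes did the groups overlap, and Sgs1 and Eig71Ee lost a larger part of their level than Sgs3 did.

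The smaller glue genes followed. Sgs4, the glue gene long used as a model of hormone timing, had 10888 ± 1166 CPM in lglRNAi;RasV12-glands, beside 39903 ± 9416 CPM in w1118-glands (SD, n = 3 each, as for every ± beside a mean; log2 fold change -1.87 ± 0.18, adjusted p = 6.65e-06). Sgs5bis, a relative of Sgs5, had 734, 978 and 1001 CPM in lglRNAi;RasV12-glands, against 11774, 7069 and 7557 CPM in w1118-glands (log2 fold change -3.28 ± 0.25, adjusted p = 1.33e-06). The small, cysteine-rich Sgs7 and Sgs8, which lie beside Sgs3, had log2 fold changes of -1.61 and -1.56. Sgs5 was the single member not called, with 13412 ± 597 CPM in lglRNAi;RasV12-glands, beside 25557 ± 9576 CPM in w1118-glands (log2 fold change -0.93 ± 0.21, adjusted p = 0.0028), although its groups did not overlap, and it passed the limits without w1118 replicate 2 (-1.14, adjusted p = 0.000321) and without w1118 replicate 3 (-1.01, adjusted p = 0.00499). Sgs7 and Sgs8, and Sgs5 and Sgs5bis, are related in sequence, so reads shared between copies could be split by the estimation of counts. None of the 4 new glue genes, active earlier in larval life, was called, and their median of -0.28 turned to 0.12 under library-size scaling. The most abundant of them, ng3, had 2558 ± 150 CPM in lglRNAi;RasV12-glands, beside 3596 ± 671 CPM in w1118-glands. Of the 10 late genes of the 71E cluster only 4 could be tested and all 4 were called lower, led in level by Eig71Ea with 1.58, 2.4 and 1.77 CPM in lglRNAi;RasV12-glands, against 13.8, 8.9 and 9.97 CPM in w1118-glands (log2 fold change -2.51 ± 0.24, adjusted p = 6.79e-06). Those late genes called lower numbered 2 under library-size scaling, at a minimum count of 50, without lglRNAi;RasV12 replicate 1 and without w1118 replicate 3.

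**Figure D2:**
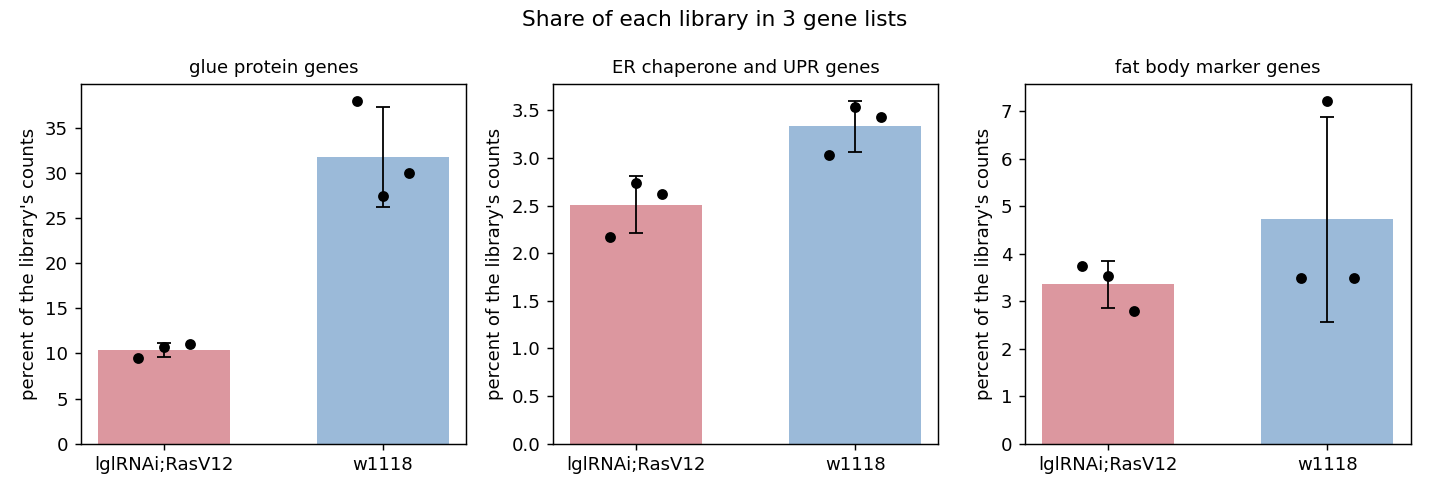
Percent of each library's summed counts taken by the 8 glue protein genes, the 19 genes of the endoplasmic reticulum (ER) chaperone and unfolded protein response list and the 8 fat body marker genes. Bars are means, error bars SD and points the 3 libraries of lglRNAi;RasV12 (left) and w1118 (right); the glue share lies between 9.51 and 11 percent in lglRNAi;RasV12 and between 27.4 and 38 percent in w1118, without overlap.

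The machinery that folds and ships secretory proteins was lower as well, but by less. In the list of endoplasmic reticulum (ER) chaperones and the unfolded protein response (UPR) 1 of its 19 tested members (19 listed) was called higher and 4 lower, with a median log2 fold change of -0.70 (-0.30 under library-size scaling), and 13 members were lower by the adjusted p alone, beside 23.5% of all tested genes. Hsc70-3, the ER chaperone BiP and the most abundant member, had 3769, 5351 and 4881 CPM in lglRNAi;RasV12-glands, against 14117, 13930 and 13232 CPM in w1118-glands (log2 fold change -1.56 ± 0.13, adjusted p = 1.85e-06). Edem2, which helps send misfolded glycoproteins to degradation, had 119, 136 and 129 CPM in lglRNAi;RasV12-glands, against 676, 441 and 439 CPM in w1118-glands (log2 fold change -2.02 ± 0.15, adjusted p = 1.15e-06). In both, all lglRNAi;RasV12 libraries lay below all w1118 libraries. Xbp1, the transcription factor activated by the UPR, went the other way and was the member called higher, with 2235, 2081 and 2130 CPM in lglRNAi;RasV12-glands, against 1110, 1015 and 975 CPM in w1118-glands (log2 fold change 1.06 ± 0.10, adjusted p = 4.97e-06). ER members called lower numbered 2 under library-size scaling and without lglRNAi;RasV12 replicate 1.

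Coat proteins of the vesicles between ER and Golgi showed many small differences of one sign. Of 16 COPI and COPII genes 15 were lower by the adjusted p alone, and the median log2 fold change was -0.69 (-0.28 under library-size scaling). The 10 Pgant enzymes, which start O-linked glycosylation of mucins, had a median of -0.37 that turned to 0.03 under library-size scaling, and none was called. Pgant1, the most abundant, had 2096 ± 239 CPM in lglRNAi;RasV12-glands, beside 1666 ± 454 CPM in w1118-glands and overlapped between groups.

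Most of the tested regulators that set up and run the gland were not called. fkh, the forkhead factor that maintains gland identity, had 344 ± 4.04 CPM in lglRNAi;RasV12-glands, beside 247 ± 30.2 CPM in w1118-glands (log2 fold change 0.48 ± 0.12, adjusted p = 0.00536), and CrebA, an activator of secretory genes, had 885 ± 72.4 CPM in lglRNAi;RasV12-glands, beside 899 ± 48.9 CPM in w1118-glands (log2 fold change -0.02 ± 0.15, adjusted p = 0.914). Neither was called. sage, a gland-specific factor that works with fkh, had 523, 766 and 716 CPM in lglRNAi;RasV12-glands, against 1442, 1382 and 1494 CPM in w1118-glands (log2 fold change -1.11 ± 0.14, adjusted p = 5.16e-05) and passed the limits by little, since its call was lost under library-size scaling (-0.70, adjusted p = 0.00253) and without lglRNAi;RasV12 replicate 1 (-0.96, adjusted p = 8.7e-05). Of 11 tested regulators 1 was called higher, Xbp1, and 2 lower, beside 12.1% and 7.87% of all tested genes. Their median was -0.09 and turned to 0.32 under library-size scaling. Regulators called lower numbered 0 under library-size scaling and 1 without lglRNAi;RasV12 replicate 1, 2 or 3. In the ecdysone response list 5 of 22 tested members were called higher and 2 lower, beside 12.1% and 7.87% of all tested genes. By the adjusted p alone 8 were higher and 4 lower, beside 28.2% and 23.5%. Their log2 fold changes ran from -2.31 to 2.96, with a median of 0.20. Ecdysone response genes called higher numbered 8 under library-size scaling and 1 at a minimum count of 50 and without w1118 replicate 2. EcR, the hormone receptor, had 301 ± 24.4 CPM in lglRNAi;RasV12-glands, beside 266 ± 73.4 CPM in w1118-glands (log2 fold change 0.18 ± 0.17, adjusted p = 0.394), and br, a transcription factor of the early response and the most abundant member, had 644 ± 42.8 CPM in lglRNAi;RasV12-glands, beside 705 ± 37 CPM in w1118-glands (log2 fold change -0.13 ± 0.15, adjusted p = 0.495). Sox14, another early response factor, was called higher, with 122, 82.8 and 99.1 CPM in lglRNAi;RasV12-glands, against 29.8, 22.2 and 28 CPM in w1118-glands (log2 fold change 1.93 ± 0.22, adjusted p = 2.65e-05). ImpE2, a secreted protein that ecdysone induces in imaginal discs, was called lower, with 0.41, 0.279 and 0.467 CPM in lglRNAi;RasV12-glands, against 2.64, 1.7 and 1.44 CPM in w1118-glands (log2 fold change -2.31 ± 0.36, adjusted p = 0.000261).

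Most tested targets and ligands of Egfr signalling rose. In the list of Egfr ligands and feedback genes 12 of its 16 tested members (19 listed) were called higher and 0 lower, with a median log2 fold change of 2.22, beside 12.1% higher among all tested genes. aos, a secreted inhibitor that binds the ligand Spitz (3L:16470386-16483650), had 17.9, 22.7 and 22.3 CPM in lglRNAi;RasV12-glands, against 0.384, 0.136 and 0.131 CPM in w1118-glands (log2 fold change 6.64 ± 0.35, adjusted p = 1.27e-07). rho, the protease that releases Spitz, had 14.1, 11.7 and 10.6 CPM in lglRNAi;RasV12-glands, against 0.767, 0.544 and 0.566 CPM in w1118-glands (log2 fold change 4.29 ± 0.27, adjusted p = 3.28e-07). Every lglRNAi;RasV12 library was above every w1118 library for both. Mkp3, a phosphatase that switches off the MAP kinase, had 22.3, 23.2 and 22.9 CPM in lglRNAi;RasV12-glands, against 1.44, 1.5 and 1.04 CPM in w1118-glands (log2 fold change 4.09 ± 0.16, adjusted p = 1.78e-08). sty, the inhibitor Sprouty, had 122, 120 and 124 CPM in lglRNAi;RasV12-glands, against 9.59, 8.67 and 7.66 CPM in w1118-glands (log2 fold change 3.82 ± 0.15, adjusted p = 1.1e-08). These feedback inhibitors were joined by ligands: spi, vn and grk had log2 fold changes of 1.72, 3.44 and 2.54, all called higher. The inhibitory kek1 (3.45) and the repressors aop (3.12) and cic (1.72) were called higher too. The receptor itself was not called, with 56.5 ± 3 CPM in lglRNAi;RasV12-glands, beside 86.6 ± 19.7 CPM in w1118-glands (log2 fold change -0.62 ± 0.16, adjusted p = 0.00599), nor was the ETS factor pnt (0.47, adjusted p = 0.0606).

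The core of the pathway moved less than its feedback genes. In the Ras-MAPK core list 5 of its 14 tested members (14 listed) were called higher and 0 lower, with a median log2 fold change of 0.49, Ras85D included. RasGAP1, which speeds the return of Ras to its inactive form, had 47.3, 45.6 and 45.1 CPM in lglRNAi;RasV12-glands, against 8.2, 5.98 and 7.31 CPM in w1118-glands (log2 fold change 2.69 ± 0.12, adjusted p = 3.17e-08), without overlap. The adaptor dos (2.29, adjusted p = 0.00127) and Nf1, also an inhibitor of Ras (1.13, adjusted p = 5.58e-06), were called higher. The kinases of the cascade, Raf (-0.15, adjusted p = 0.188), Dsor1 (0.44, adjusted p = 0.00415) and rl (0.35, adjusted p = 0.0772), were within the fold limit.

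Stress signalling through the Jun kinase (JNK) showed a like split between components and outputs. In the cascade list 7 of its 15 tested members (15 listed) were called higher and 0 lower, with a median log2 fold change of 0.41, whereas in the list of outputs 7 of its 10 tested members (13 listed) were called higher and 0 lower, with a median log2 fold change of 2.74. Mmp1, a matrix metalloproteinase (2R:24671294-24688184), had 759, 327 and 442 CPM in lglRNAi;RasV12-glands, against 8.39, 4.42 and 7.14 CPM in w1118-glands (log2 fold change 6.27 ± 0.50, adjusted p = 1.51e-06). upd3, the cytokine that activates JAK-STAT signalling (X:18277233-18284596), had 19.5, 12.7 and 13.3 CPM in lglRNAi;RasV12-glands, against 0.336, 0.034 and 0 CPM in w1118-glands (log2 fold change 7.07 ± 0.55, adjusted p = 1.41e-06). Timp, which inhibits metalloproteinases, rose along with Mmp1 and had 179, 97.1 and 121 CPM in lglRNAi;RasV12-glands, against 2.64, 2.04 and 1.79 CPM in w1118-glands (log2 fold change 5.95 ± 0.33, adjusted p = 1.75e-07). No library of one group reached the range of the other in these genes. Ets21C, an ETS factor, had 44.6, 11.2 and 25.7 CPM in lglRNAi;RasV12-glands, against 1.1, 0.578 and 1.13 CPM in w1118-glands (log2 fold change 4.89 ± 0.71, adjusted p = 0.000141). puc, the phosphatase that restrains JNK, had 303, 214 and 220 CPM in lglRNAi;RasV12-glands, against 64, 40.5 and 66.1 CPM in w1118-glands (log2 fold change 2.11 ± 0.20, adjusted p = 5.61e-06). In all of these outputs lglRNAi;RasV12 replicate 1 was the highest library, and replicate 2 the lowest of its group, still above every w1118 library.

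Within the cascade, transcription factors, receptors and some upstream kinases rose, and the Jun kinase itself was not called. kay, the Fos subunit of AP-1 and the most abundant member, had 620, 306 and 381 CPM in lglRNAi;RasV12-glands, against 128, 81.7 and 102 CPM in w1118-glands (log2 fold change 2.07 ± 0.26, adjusted p = 5.3e-05). Tak1, a kinase shared with the Imd pathway, had 293, 222 and 245 CPM in lglRNAi;RasV12-glands, against 69.2, 67.3 and 65 CPM in w1118-glands (log2 fold change 1.92 ± 0.15, adjusted p = 1.38e-06). Jra, the Jun subunit, was called higher (1.21, adjusted p = 0.000213), as were the TNF receptors grnd (1.43, adjusted p = 5.75e-06) and wgn (1.22, adjusted p = 0.000582). Their ligand egr (-0.43, adjusted p = 0.0999), the kinase hep (-0.11, adjusted p = 0.262) and bsk, the JNK itself (0.32, adjusted p = 0.0185), were within the limits.

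**Figure D3:**
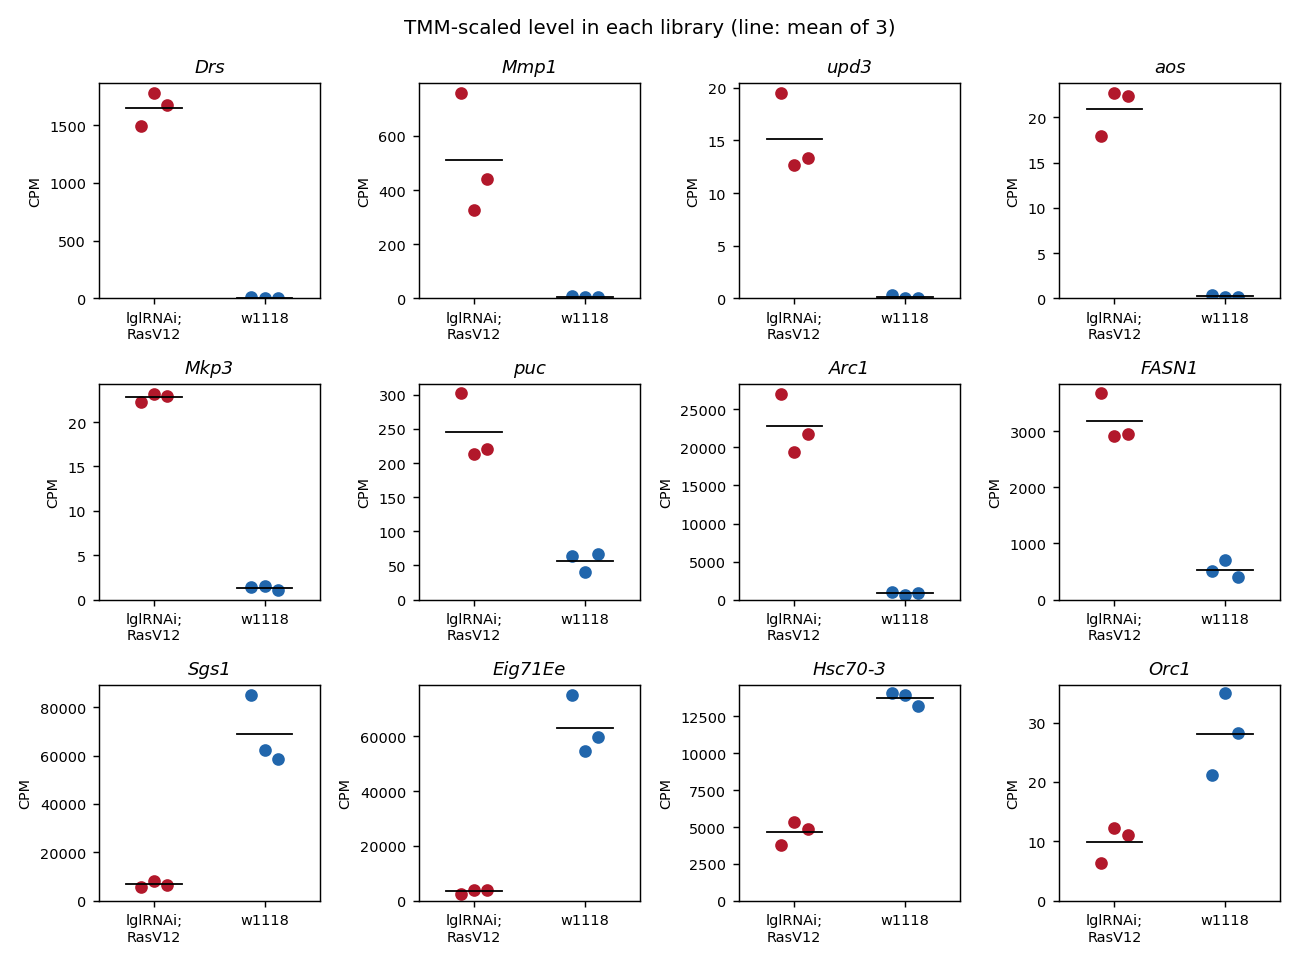
Level in CPM (linear axes from 0) of 12 genes in each of the 3 lglRNAi;RasV12 libraries (left) and 3 w1118 libraries (right); lines are means. The first 8 genes are higher in all lglRNAi;RasV12 libraries than in any w1118 library, with Mmp1 at 327 to 759 CPM against 4.42 to 8.39 CPM, and the last 4, Sgs1, Eig71Ee, Hsc70-3 and Orc1, are lower.

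JAK-STAT and cell death genes followed in part. These lists share called genes with the JNK outputs: upd3 is counted in the JAK-STAT list too, and rpr and hid in the apoptosis list. In the JAK-STAT list 4 of its 9 tested members (11 listed) were called higher and 0 lower, with a median log2 fold change of 0.71. Socs36E, an inhibitor that the pathway itself induces, had 85.8, 45.6 and 64.9 CPM in lglRNAi;RasV12-glands, against 30.7, 17 and 20.8 CPM in w1118-glands (log2 fold change 1.52 ± 0.34, adjusted p = 0.00294). The kinase hop (-0.37, adjusted p = 0.00528) and the transcription factor Stat92E (0.22, adjusted p = 0.074) were within the limits. In the apoptosis list 6 of its 15 tested members (18 listed) were called higher and 1 lower, with a median log2 fold change of 0.42. rpr, which triggers cell death, had 6.07, 7.12 and 6.85 CPM in lglRNAi;RasV12-glands, against 1.15, 0.51 and 0.479 CPM in w1118-glands (log2 fold change 3.25 ± 0.40, adjusted p = 3.94e-05). hid, which acts beside rpr, had 27.1, 12.7 and 14.9 CPM in lglRNAi;RasV12-glands, against 5.37, 1.73 and 4.83 CPM in w1118-glands (log2 fold change 2.22 ± 0.44, adjusted p = 0.00125), and Drice, an effector caspase, had 49.3, 39.3 and 42.4 CPM in lglRNAi;RasV12-glands, against 14.4, 13.8 and 13 CPM in w1118-glands (log2 fold change 1.67 ± 0.10, adjusted p = 2.42e-07). All 3 were higher in every lglRNAi;RasV12 library. Diap1, which blocks caspases and is the target of both inducers, had 714, 408 and 502 CPM in lglRNAi;RasV12-glands, against 300, 207 and 288 CPM in w1118-glands (log2 fold change 1.03 ± 0.20, adjusted p = 0.00114), but its call was lost under RLE scaling (0.99, adjusted p = 0.00161), without lglRNAi;RasV12 replicate 1 (0.78, adjusted p = 0.00378), without w1118 replicate 2 (0.88, adjusted p = 0.00569) and in DESeq2 (0.99, adjusted p = 8.06e-06). Buffy, of the Bcl-2 family, was called lower, with 0.527, 0.335 and 0.249 CPM in lglRNAi;RasV12-glands, against 2.06, 2.48 and 3.09 CPM in w1118-glands (log2 fold change -2.74 ± 0.48, adjusted p = 0.000595). Apoptosis genes called higher numbered 3 without lglRNAi;RasV12 replicate 1. JAK-STAT members called lower numbered 1 without lglRNAi;RasV12 replicate 1.

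Antimicrobial peptides gave one very large change and otherwise scattered ones. Drs, the antifungal peptide Drosomycin (3L:3369556-3369942), had 1496, 1779 and 1676 CPM in lglRNAi;RasV12-glands, against 12.8, 1.46 and 4.48 CPM in w1118-glands (log2 fold change 8.08 ± 0.62, adjusted p = 1.24e-06), while 6 related Drosomycin-like genes had too few counts to be tested. Of 14 other antimicrobial peptide genes 2 were called higher, CecC and AttD, beside 12.1% of all tested genes. CecC, a cecropin, had 37.8, 18.7 and 18 CPM in lglRNAi;RasV12-glands, against 4.94, 5.81 and 3.31 CPM in w1118-glands (log2 fold change 2.40 ± 0.41, adjusted p = 0.000441). AttD, an attacin, had 4.9, 8.02 and 0.685 CPM in lglRNAi;RasV12-glands, against 0.048, 0.17 and 0.61 CPM in w1118-glands (log2 fold change 4.05 ± 1.16, adjusted p = 0.012), and its call was lost without w1118 replicate 2 (3.73, adjusted p = 0.0503). For the remaining 12, AttA, AttB, CecA1 and CecA2 among them, the groups overlapped, and the list's median of 1.16 was -0.84 without lglRNAi;RasV12 replicate 1. Some of these copies, AttA and AttB above all, are so alike that their counts could be exchanged.

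Toll signalling changed at a few points. Of 5 tested Toll receptors 2 were called higher, Tollo and Toll-4, and the second stayed below 1 CPM in all 6 libraries. Tollo, also named Toll-8, had 17.3, 13.5 and 14.2 CPM in lglRNAi;RasV12-glands, against 2.59, 1.9 and 1.44 CPM in w1118-glands (log2 fold change 2.93 ± 0.33, adjusted p = 1.94e-05). Tl, the receptor of the immune pathway, had 28.2 ± 7.62 CPM in lglRNAi;RasV12-glands, beside 27 ± 1.66 CPM in w1118-glands (log2 fold change 0.07 ± 0.16, adjusted p = 0.74). spz5, a ligand of the Spätzle family, had 18.8, 24.3 and 22.6 CPM in lglRNAi;RasV12-glands, against 0.671, 0.646 and 0.61 CPM in w1118-glands (log2 fold change 5.08 ± 0.16, adjusted p = 3.14e-09), whereas spz, the ligand of Tl, had 27.7 ± 2.42 CPM in lglRNAi;RasV12-glands, beside 42.6 ± 16.2 CPM in w1118-glands (log2 fold change -0.62 ± 0.20, adjusted p = 0.0214). The ligand and the receptor of the classical immune pathway were thus not among the genes that rose. In the cascade list 3 of its 13 tested members (13 listed) were called higher and 0 lower. These counts stand beside 12.1% and 7.87% of all tested genes. The median log2 fold change was -0.08, with 0.33 under library-size scaling. Called higher were the NF-kappaB factors dl (log2 fold change 1.38) and Dif, and Pli. The NF-kappaB factor Dif had 62.8, 55.6 and 63.9 CPM in lglRNAi;RasV12-glands, against 8.44, 7.72 and 8.58 CPM in w1118-glands (log2 fold change 2.88 ± 0.20, adjusted p = 6.4e-07), and Pli, an adaptor that binds the kinase Pelle, had 82.2, 83.8 and 86.7 CPM in lglRNAi;RasV12-glands, against 16.1, 12.9 and 13.5 CPM in w1118-glands (log2 fold change 2.58 ± 0.11, adjusted p = 3.17e-08). cact, which holds these NF-kappaB factors in the cytoplasm, had 151 ± 4.8 CPM in lglRNAi;RasV12-glands, beside 159 ± 18.7 CPM in w1118-glands (log2 fold change -0.08 ± 0.11, adjusted p = 0.579).

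In the Imd list 3 of its 15 tested members (15 listed) were called higher and 0 lower, with a median log2 fold change of 0.50. Among all tested genes 12.1% were called higher and 7.87% lower. Imd genes called higher numbered 6 under library-size scaling. Its NF-kappaB factor Rel had 223, 143 and 156 CPM in lglRNAi;RasV12-glands, against 70.2, 43.4 and 53.8 CPM in w1118-glands (log2 fold change 1.64 ± 0.24, adjusted p = 0.000142), beside Tak1 as given above. Of 10 tested peptidoglycan recognition genes 4 were higher by the adjusted p alone, and PGRP-LB, which degrades peptidoglycan and was the most abundant, had 93 ± 24.5 CPM in lglRNAi;RasV12-glands, beside 65.9 ± 6.91 CPM in w1118-glands (log2 fold change 0.50 ± 0.20, adjusted p = 0.0577). In the serpin list 4 of its 15 tested members (27 listed) were called higher and 0 lower, with a median log2 fold change of 0.02, a median that was -0.02 under RLE scaling. Serpins called lower numbered 1 without lglRNAi;RasV12 replicate 1 and in DESeq2. Spn88Ea, a protease inhibitor, had 127, 102 and 103 CPM in lglRNAi;RasV12-glands, against 11.5, 8.94 and 8.14 CPM in w1118-glands (log2 fold change 3.54 ± 0.19, adjusted p = 1.44e-07). Spn55B had 782, 438 and 508 CPM in lglRNAi;RasV12-glands, against 171, 160 and 170 CPM in w1118-glands (log2 fold change 1.78 ± 0.28, adjusted p = 0.000229).

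Genes of septate junctions were mostly higher. In the septate junction list, whose products seal epithelial cells to each other, 7 of its 25 tested members (26 listed) were called higher and 0 lower, with a median log2 fold change of 0.79, and 22 of 25 members were higher by the adjusted p alone, beside 28.2% of all tested genes. bark, needed for mature junctions between cells, had 546, 280 and 346 CPM in lglRNAi;RasV12-glands, against 49.7, 31 and 34.5 CPM in w1118-glands (log2 fold change 3.35 ± 0.27, adjusted p = 1.83e-06). nrv2, a sodium pump subunit, had 153, 126 and 139 CPM in lglRNAi;RasV12-glands, against 26.9, 29.8 and 26.6 CPM in w1118-glands (log2 fold change 2.33 ± 0.11, adjusted p = 4.75e-08). The immunoglobulin-type adhesion proteins Lac (2.17, adjusted p = 1.81e-06) and Fas3 (1.51, adjusted p = 8.8e-07) also passed the limits. Junction genes called higher numbered 18 under library-size scaling. Of 13 polarity genes 9 were higher by the adjusted p alone, with a median of 0.61, but only Cdc42, a small GTPase, was called, with 350, 310 and 334 CPM in lglRNAi;RasV12-glands, against 108, 115 and 122 CPM in w1118-glands (log2 fold change 1.52 ± 0.11, adjusted p = 9.3e-07). Polarity genes called higher numbered 7 under library-size scaling. The partners of l(2)gl in the basolateral module, dlg1 (-0.44, adjusted p = 0.00399) and scrib (0.53, adjusted p = 0.00198), had log2 fold changes of opposite sign.

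Several integrin and actin genes rose. In the integrin adhesion list 8 of its 14 tested members (15 listed) were called higher and 0 lower, with a median log2 fold change of 1.15 (1.57 under library-size scaling). scb, an alpha subunit, had 2124, 1524 and 1659 CPM in lglRNAi;RasV12-glands, against 305, 212 and 305 CPM in w1118-glands (log2 fold change 2.69 ± 0.20, adjusted p = 1.19e-06). ItgaPS4, its neighbour on 2R and also an alpha subunit, had 9.19, 6.84 and 6.5 CPM in lglRNAi;RasV12-glands, against 1.2, 0.68 and 0.871 CPM in w1118-glands (log2 fold change 3.06 ± 0.26, adjusted p = 2.29e-06). The beta subunit mys (1.77, adjusted p = 8.03e-06), the alpha subunit mew (1.52, adjusted p = 9.58e-05) and the linker Vinc (1.52, adjusted p = 0.000509) were called higher too. In the actin and myosin list 8 of its 21 tested members (21 listed) were called higher and 0 lower, with a median log2 fold change of 0.78. Act5C, a cytoplasmic actin, had 16603 ± 1944 CPM in lglRNAi;RasV12-glands, beside 3954 ± 265 CPM in w1118-glands (log2 fold change 2.07 ± 0.16, adjusted p = 1.33e-06), a difference in level exceeded only by that of Arc1 among the genes called higher. ena, which promotes actin filament growth, had 172, 83.7 and 110 CPM in lglRNAi;RasV12-glands, against 9.4, 7.07 and 7.23 CPM in w1118-glands (log2 fold change 3.95 ± 0.35, adjusted p = 3.6e-06). The groups were apart for both. zip, the heavy chain of non-muscle myosin, was higher by the adjusted p but within the fold limit (0.73, adjusted p = 0.000155), and it passed the limits under library-size scaling (1.15, adjusted p = 4.82e-07). Actin and myosin genes called higher numbered 14 under library-size scaling.

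Of the basement membrane genes 1 was called lower and 1 higher. Of the 11 tested 7 were lower by the adjusted p alone, beside 23.5% of all tested genes, with a median of -0.64 that was -0.35 without w1118 replicate 2 and -0.23 under library-size scaling. The type IV collagen Col4a1, the most abundant, had 326, 345 and 277 CPM in lglRNAi;RasV12-glands, against 386, 935 and 419 CPM in w1118-glands (log2 fold change -0.88 ± 0.28, adjusted p = 0.0213); it passed the limits without w1118 replicate 1 (-1.10, adjusted p = 0.00653) and without w1118 replicate 3 (-1.07, adjusted p = 0.0124). SPARC, a collagen-binding protein, was called lower, with 24.7, 22.8 and 17.6 CPM in lglRNAi;RasV12-glands, against 38, 81.2 and 37.1 CPM in w1118-glands (log2 fold change -1.26 ± 0.27, adjusted p = 0.00192), and its call was lost under library-size scaling (-0.87, adjusted p = 0.0199) and without w1118 replicate 2 (-0.79, adjusted p = 0.00173). Ndg, nidogen, was called higher, with 2.34, 2.37 and 2.33 CPM in lglRNAi;RasV12-glands, against 0.24, 0.34 and 0.392 CPM in w1118-glands (log2 fold change 2.84 ± 0.36, adjusted p = 4.73e-05). Basement membrane genes called lower numbered 0 under library-size scaling and without w1118 replicate 2, 2 without lglRNAi;RasV12 replicate 1 and 3 without w1118 replicate 1 and without w1118 replicate 3. Beside these values, larval serum proteins of the fat body, a tissue that makes much of the basement membrane, were lower in the same direction: 6 of 8 markers passed the adjusted p alone, with a median of -0.91 that was -0.48 without w1118 replicate 2 and -0.51 under library-size scaling, and the summed level of the 8 was 35306, 33141 and 26501 CPM in lglRNAi;RasV12-glands, against 47485, 87279 and 41748 CPM in w1118-glands. w1118 replicate 2 had by far the highest sum of the 6. As shares of all counts the same genes took 3.74, 3.53 and 2.8 percent in the lglRNAi;RasV12 libraries, against 3.48, 7.22 and 3.48 percent in the w1118 libraries, and here the groups overlapped. The part of the fat body in the basement membrane values was not tested.

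Single members of the Hippo, Notch and morphogen lists were called. In the Hippo list 3 of its 16 tested members (16 listed) were called higher and 1 lower, with a median log2 fold change of 0.32. Both counts lie near the 12.1% and 7.87% of all tested genes. Diap1, counted above with the apoptosis genes, is also among the Hippo genes called higher. sd, the DNA-binding partner of Yorkie, had 165, 109 and 123 CPM in lglRNAi;RasV12-glands, against 69.3, 47.5 and 53.8 CPM in w1118-glands (log2 fold change 1.22 ± 0.17, adjusted p = 0.000117). ft, the atypical cadherin Fat, had 8.39, 2.96 and 3.95 CPM in lglRNAi;RasV12-glands, against 23.5, 10.9 and 12.6 CPM in w1118-glands (log2 fold change -1.60 ± 0.44, adjusted p = 0.00916). Hippo genes called higher numbered 1 without w1118 replicate 2 and 6 under library-size scaling, and those called lower numbered 3 without lglRNAi;RasV12 replicate 1. In the Notch list 1 of its 15 tested members (21 listed) was called higher and 3 lower, with a median log2 fold change of -0.11 (0.30 under library-size scaling, 0.25 at a minimum count of 50 and -1.18 without lglRNAi;RasV12 replicate 1). Notch genes called higher numbered 4 under library-size scaling, and those called lower numbered 1 at a minimum count of 50. mam, a coactivator of Notch, had 57.7, 49.4 and 48.4 CPM in lglRNAi;RasV12-glands, against 13.4, 12.9 and 9.1 CPM in w1118-glands (log2 fold change 2.14 ± 0.20, adjusted p = 4.9e-06). Ser, a Notch ligand, had 3.59, 2.35 and 3.08 CPM in lglRNAi;RasV12-glands, against 11.4, 7 and 7.88 CPM in w1118-glands (log2 fold change -1.53 ± 0.23, adjusted p = 0.000204). Coactivator and ligand thus moved in opposite directions. In the morphogen list 3 of its 21 tested members (22 listed) were called higher and 2 lower, with a median log2 fold change of 0.01, counts near the 12.1% and 7.87% of all tested genes. Morphogen genes called lower numbered 1 under library-size scaling and at a minimum count of 50. brk, a repressor of Dpp targets, had 308, 309 and 306 CPM in lglRNAi;RasV12-glands, against 98.9, 74.8 and 71.3 CPM in w1118-glands (log2 fold change 1.91 ± 0.17, adjusted p = 3.06e-06). nkd, an inhibitor of Wingless signalling, had 9.09, 6.54 and 5.82 CPM in lglRNAi;RasV12-glands, against 25, 17.8 and 27.9 CPM in w1118-glands (log2 fold change -1.71 ± 0.28, adjusted p = 0.000384).

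Several DNA replication genes fell, and the growth promoter Myc did not. In the replication list 0 of its 29 tested members (29 listed) were called higher and 8 lower, with a median log2 fold change of -0.71 (-0.32 under library-size scaling), and 14 of 29 were lower by the adjusted p alone. Orc1, a subunit of the origin recognition complex, had 6.44, 12.2 and 11 CPM in lglRNAi;RasV12-glands, against 21.2, 34.9 and 28.3 CPM in w1118-glands (log2 fold change -1.52 ± 0.29, adjusted p = 0.000946). Mcm2, of the replicative helicase, had 7.28, 11.4 and 10.1 CPM in lglRNAi;RasV12-glands, against 14.1, 28 and 24.7 CPM in w1118-glands (log2 fold change -1.22 ± 0.26, adjusted p = 0.00198), but its call was lost under library-size scaling (-0.83, adjusted p = 0.0265). Replication genes called lower numbered 1 under library-size scaling, 4 without lglRNAi;RasV12 replicate 1 and 5 without w1118 replicate 2. In the endocycle list 0 of its 18 tested members (18 listed) were called higher and 4 lower, with a median log2 fold change of -0.48. Cdk2, the kinase that starts S phase, had 1.83, 3.13 and 3.36 CPM in lglRNAi;RasV12-glands, against 5.75, 12.7 and 14 CPM in w1118-glands (log2 fold change -1.98 ± 0.34, adjusted p = 0.000455). E2f1, the activating E2F and the most abundant member, had 185 ± 5.06 CPM in lglRNAi;RasV12-glands, beside 253 ± 17.8 CPM in w1118-glands (log2 fold change -0.45 ± 0.09, adjusted p = 0.00099). Endocycle genes called lower numbered 1 under library-size scaling. Myc had 153, 164 and 177 CPM in lglRNAi;RasV12-glands, against 106, 73.9 and 73.3 CPM in w1118-glands (log2 fold change 0.97 ± 0.18, adjusted p = 0.000796), higher by the adjusted p but short of the fold limit, and it passed the limits under library-size scaling (1.39, adjusted p = 1.35e-05), without lglRNAi;RasV12 replicate 1 (1.02, adjusted p = 0.00197) and without w1118 replicate 1 (1.16, adjusted p = 0.000329). The list of Myc and ribosome biogenesis genes had a median of -0.18 that turned to 0.22 under library-size scaling, with 2 of 20 genes higher and 2 lower by the adjusted p alone.

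Housekeeping families moved little and together. Of 84 tested cytosolic ribosomal protein genes 65 were lower by the adjusted p alone, with a median of -0.36, which became 0.04 under library-size scaling. RpL3, the most abundant, had 2051 ± 90.5 CPM in lglRNAi;RasV12-glands, beside 2667 ± 165 CPM in w1118-glands (log2 fold change -0.38 ± 0.10, adjusted p = 0.0098). Of 64 oxidative phosphorylation genes 45 were lower by the adjusted p alone, with a median of -0.50 (-0.09 under library-size scaling), among them ATPsynbeta, the catalytic subunit of the ATP synthase, with 491 ± 53.7 CPM in lglRNAi;RasV12-glands, beside 779 ± 128 CPM in w1118-glands (log2 fold change -0.67 ± 0.14, adjusted p = 0.0019). Proteasome (median -0.24), mitochondrial ribosome (-0.22) and aminoacyl-tRNA synthetase genes (-0.16) all turned to medians above 0 under library-size scaling. Lists of endosome and lysosome genes lay on the other side. Subunits of the vacuolar ATPase (median 0.30) and Rab GTPases (0.37) had medians above 0 under both scalings. By the adjusted p alone 13 of 22 ATPase genes and 13 of 23 Rab genes were higher, beside 28.2% of all tested genes. Called higher were 1 ATPase and 4 Rab genes, and 1 of each list was called lower, beside 12.1% and 7.87%. Rab7, a late endosome GTPase, was called higher, with 545, 386 and 422 CPM in lglRNAi;RasV12-glands, against 192, 159 and 189 CPM in w1118-glands (log2 fold change 1.32 ± 0.15, adjusted p = 1.93e-05). Of 21 tested autophagy genes 10 were higher and 3 lower by the adjusted p alone, beside 28.2% and 23.5% of all tested genes, and ref(2)P, a cargo receptor, had 369 ± 113 CPM in lglRNAi;RasV12-glands, beside 198 ± 29.2 CPM in w1118-glands (log2 fold change 0.90 ± 0.20, adjusted p = 0.00275) and was not called, although it passed the limits under library-size scaling (1.32, adjusted p = 0.000152) and without lglRNAi;RasV12 replicate 2 (1.07, adjusted p = 0.0011).

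**Figure D4:**
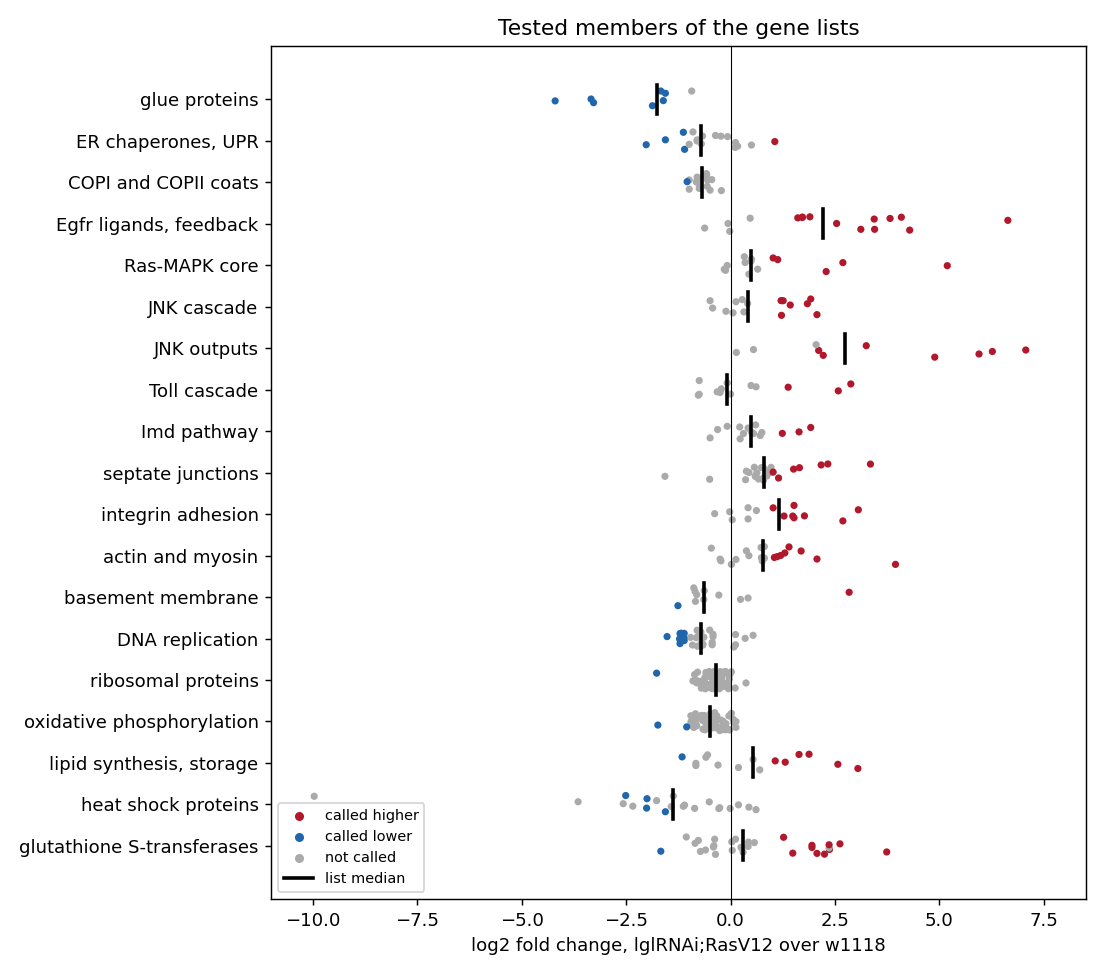
Log2 fold change, lglRNAi;RasV12 over w1118, of every tested member of 19 gene lists. Red points were called higher, blue lower and grey not called, and black bars are list medians; JNK outputs (median 2.74) and Egfr ligands and feedback genes (2.22) lie to the right, and glue protein genes (-1.77) to the left.

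Several genes that build lipids rose. In the list of lipid synthesis and storage 6 of its 15 tested members (15 listed) were called higher and 1 lower, with a median log2 fold change of 0.54. FASN1, a fatty acid synthase, had 3677, 2903 and 2953 CPM in lglRNAi;RasV12-glands, against 502, 701 and 403 CPM in w1118-glands (log2 fold change 2.57 ± 0.24, adjusted p = 5.2e-06). AcCoAS, which activates acetate, had 531, 299 and 309 CPM in lglRNAi;RasV12-glands, against 44.9, 54.1 and 38 CPM in w1118-glands (log2 fold change 3.05 ± 0.25, adjusted p = 1.67e-06). ACC, Lpin and the regulator SREBP had log2 fold changes of 1.64, 1.88 and 1.31 and were called higher too. bmm, a lipase that breaks down stored triglyceride, was called lower, with 20, 13.4 and 8.84 CPM in lglRNAi;RasV12-glands, against 30.6, 41.6 and 22.8 CPM in w1118-glands (log2 fold change -1.16 ± 0.29, adjusted p = 0.00513), but its call was lost under library-size scaling (-0.76, adjusted p = 0.0396), without lglRNAi;RasV12 replicate 3 (-0.93, adjusted p = 0.0182) and without w1118 replicate 2 (-0.92, adjusted p = 0.0253). Lipid genes called lower numbered 0 under library-size scaling, without lglRNAi;RasV12 replicate 3 and without w1118 replicate 2 and 2 without w1118 replicate 3. The fat body also makes lipids, and its markers are given above. Their part in the lipid gene values was not tested.

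In the insulin and TOR list 4 of its 22 tested members (22 listed) were called higher and 2 lower, with a median log2 fold change of 0.20. These counts lie near the 12.1% and 7.87% of all tested genes. Insulin and TOR genes called lower numbered 1 under library-size scaling. scyl, an inhibitor of TOR, had 2152, 2145 and 2237 CPM in lglRNAi;RasV12-glands, against 185, 121 and 132 CPM in w1118-glands (log2 fold change 3.90 ± 0.18, adjusted p = 4.56e-08). Thor, the translation repressor 4E-BP, had 1014, 1026 and 962 CPM in lglRNAi;RasV12-glands, against 519, 339 and 399 CPM in w1118-glands (log2 fold change 1.26 ± 0.13, adjusted p = 1.41e-05). Both are genes that restrain growth, and their groups did not overlap. Ilp6, an insulin-like peptide, was called lower, with 22.9, 26.5 and 22 CPM in lglRNAi;RasV12-glands, against 64.3, 68.4 and 60.3 CPM in w1118-glands (log2 fold change -1.43 ± 0.15, adjusted p = 1.06e-05). In the glycolysis list 2 of its 15 tested members (15 listed) were called higher and 2 lower, with a median log2 fold change of -0.34 (0.07 under library-size scaling). Here too the counts lie near the 12.1% and 7.87% of all tested genes. Glycolysis genes called lower numbered 1 under library-size scaling. Ldh, lactate dehydrogenase, had 66.9, 128 and 98.8 CPM in lglRNAi;RasV12-glands, against 23.4, 15.9 and 15.9 CPM in w1118-glands (log2 fold change 2.41 ± 0.27, adjusted p = 1.84e-05). Gapdh2 had 1084, 1032 and 1022 CPM in lglRNAi;RasV12-glands, against 414, 493 and 445 CPM in w1118-glands (log2 fold change 1.21 ± 0.11, adjusted p = 4.08e-06). The sugar transporter Tret1-1 was called lower, with 66.2, 55.2 and 40.4 CPM in lglRNAi;RasV12-glands, against 240, 207 and 127 CPM in w1118-glands (log2 fold change -1.83 ± 0.23, adjusted p = 5.38e-05).

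Heat shock and detoxification genes separated. In the heat shock list 0 of its 21 tested members (26 listed) were called higher and 4 lower, with a median log2 fold change of -1.37. Among all tested genes 12.1% were called higher and 7.87% lower. Hsc70-3, counted above with the ER chaperones, is also one of the heat shock genes called lower. Hsp23, a small heat shock protein, had 455, 94.7 and 124 CPM in lglRNAi;RasV12-glands, against 669, 1105 and 2070 CPM in w1118-glands (log2 fold change -2.51 ± 0.64, adjusted p = 0.00631). Hsp27, of the same family, had 369, 144 and 201 CPM in lglRNAi;RasV12-glands, against 524, 935 and 1408 CPM in w1118-glands (log2 fold change -2.01 ± 0.44, adjusted p = 0.00255). The groups did not overlap for Hsp27. Heat shock genes called lower numbered 8 with the replicate number as a block and in DESeq2, 9 in a fit of the 6 libraries alone and 10 without the proximal part libraries. The Hsp70 copies are nearly identical, so their separate values are not given, although each tested copy enters the list's median.

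In the oxidative stress list 4 of its 18 tested members (18 listed) were called higher and 0 lower, with a median log2 fold change of 0.35. Among all tested genes 12.1% were called higher and 7.87% lower. Oxidative stress genes called higher numbered 7 under library-size scaling. Sod3, an extracellular superoxide dismutase, had 27.2, 24.9 and 27.4 CPM in lglRNAi;RasV12-glands, against 7.62, 7 and 6.14 CPM in w1118-glands (log2 fold change 1.94 ± 0.15, adjusted p = 1.18e-06). Gclm, a subunit of the enzyme that starts glutathione synthesis, had 127, 124 and 151 CPM in lglRNAi;RasV12-glands, against 39.8, 48.1 and 46.5 CPM in w1118-glands (log2 fold change 1.58 ± 0.19, adjusted p = 3.5e-05). In the glutathione S-transferase list 10 of its 29 tested members (35 listed) were called higher and 1 lower, with a median log2 fold change of 0.30. Transferases called lower numbered 0 under library-size scaling, without lglRNAi;RasV12 replicate 2, without lglRNAi;RasV12 replicate 3 and without w1118 replicate 2, 2 without w1118 replicate 1 and 4 without lglRNAi;RasV12 replicate 1. GstD1, the most abundant, had 4482, 5817 and 5500 CPM in lglRNAi;RasV12-glands, against 1007, 2832 and 2704 CPM in w1118-glands (log2 fold change 1.27 ± 0.30, adjusted p = 0.0036), but its call was lost without w1118 replicate 1 (0.92, adjusted p = 0.00031). Its neighbour GstD2 changed by much more, with 100, 70.7 and 76.6 CPM in lglRNAi;RasV12-glands, against 3.5, 7.61 and 7.18 CPM in w1118-glands (log2 fold change 3.74 ± 0.31, adjusted p = 2.09e-06). GstD9, GstD1, GstD2 and GstD3 form a run of 4 adjacent called genes at 3R:12366163-12373813, and reads could be shared between them. In the cytochrome P450 list 15 of its 61 tested members (84 listed) were called higher and 12 lower, with a median log2 fold change of 0.05. The log2 fold changes in this list ran from -4.60 to 10.3. Cyp6a17 was called lower, with 0.156, 0 and 0.0934 CPM in lglRNAi;RasV12-glands, against 1.1, 3.64 and 1.96 CPM in w1118-glands (log2 fold change -4.60 ± 0.70, adjusted p = 0.000206), and Cyp1, the most abundant, had 420 ± 36.5 CPM in lglRNAi;RasV12-glands, beside 593 ± 63.2 CPM in w1118-glands (log2 fold change -0.50 ± 0.11, adjusted p = 0.00225).

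Some genes best known from other tissues had large changes. Arc1, a capsid-like protein known from neurons (2R:14357927-14360297), had 27040, 19416 and 21795 CPM in lglRNAi;RasV12-glands, against 1019, 668 and 897 CPM in w1118-glands (log2 fold change 4.72 ± 0.25, adjusted p = 1.2e-07), the largest difference in level of any gene called higher. Arc2, its neighbour, had 76.5, 57.3 and 63.4 CPM in lglRNAi;RasV12-glands, against 6.91, 5.91 and 10.2 CPM in w1118-glands (log2 fold change 3.10 ± 0.20, adjusted p = 4.96e-07). Dscam1, an adhesion protein of neurons and immune cells, had 27.1, 19.2 and 20.3 CPM in lglRNAi;RasV12-glands, against 7.67, 5.13 and 5.22 CPM in w1118-glands (log2 fold change 1.89 ± 0.23, adjusted p = 3.32e-05), whereas Dscam4 was called lower, with 12.2, 16 and 14.4 CPM in lglRNAi;RasV12-glands, against 57.4, 32.2 and 30 CPM in w1118-glands (log2 fold change -1.48 ± 0.23, adjusted p = 0.000213). Members of 1 family thus differed in direction. ple, tyrosine hydroxylase, which starts the synthesis of dopamine, had 47.5, 25.3 and 25.5 CPM in lglRNAi;RasV12-glands, against 1.87, 0.646 and 0.522 CPM in w1118-glands (log2 fold change 5.07 ± 0.54, adjusted p = 1.39e-05). DAT, the dopamine transporter, had 0.117, 0.112 and 0.249 CPM in lglRNAi;RasV12-glands, against 2.88, 2.86 and 2.09 CPM in w1118-glands (log2 fold change -4.04 ± 0.45, adjusted p = 1.77e-05). Enzyme and transporter moved in opposite directions.

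In the chitin and apical matrix list 2 of its 18 tested members (20 listed) were called higher and 6 lower, with a median log2 fold change of -0.53. The 2 called higher were pot and pio, zona pellucida proteins that tie the apical membrane to the matrix. pot had 282, 128 and 173 CPM in lglRNAi;RasV12-glands, against 48.1, 29 and 32.9 CPM in w1118-glands (log2 fold change 2.41 ± 0.36, adjusted p = 0.000184). pio had 708, 935 and 907 CPM in lglRNAi;RasV12-glands, against 201, 162 and 160 CPM in w1118-glands (log2 fold change 2.29 ± 0.14, adjusted p = 2.89e-07). Cht7, a chitinase, was called lower, with 4.39, 6.73 and 6.13 CPM in lglRNAi;RasV12-glands, against 59.5, 29.5 and 30 CPM in w1118-glands (log2 fold change -2.79 ± 0.28, adjusted p = 9.02e-06), as was Gasp, a chitin-binding protein, with 5.89, 4.66 and 5.79 CPM in lglRNAi;RasV12-glands, against 26.4, 19.6 and 23 CPM in w1118-glands (log2 fold change -2.07 ± 0.18, adjusted p = 3.6e-06). Chitin list genes called lower numbered 2 under library-size scaling and without w1118 replicate 1 and 3 without lglRNAi;RasV12 replicate 2. Of 121 cuticle protein genes 20 were tested, and Cpr49Ac, the most abundant, was called lower, with 110, 65.8 and 55.7 CPM in lglRNAi;RasV12-glands, against 228, 266 and 166 CPM in w1118-glands (log2 fold change -1.51 ± 0.37, adjusted p = 0.00483).

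The 10 largest rises among genes with a mean of at least 5 CPM in the higher group and no overlap included Drs, upd3, aos and Mmp1, described above. Shab, a potassium channel, had 22.6, 16.1 and 19 CPM in lglRNAi;RasV12-glands, against 0.0959, 0.068 and 0.131 CPM in w1118-glands (log2 fold change 7.60 ± 0.42, adjusted p = 1.73e-07). Epac, an exchange factor that responds to cyclic AMP, had 72.5, 46.1 and 54.2 CPM in lglRNAi;RasV12-glands, against 0.863, 0.51 and 0.305 CPM in w1118-glands (log2 fold change 6.71 ± 0.40, adjusted p = 2.7e-07). Both were close to absent from w1118-glands. The tetraspanin Tsp42Eh had 31.5, 10.8 and 14.2 CPM in lglRNAi;RasV12-glands, against 0.192, 0.102 and 0.0435 CPM in w1118-glands (log2 fold change 7.39 ± 0.72, adjusted p = 7.42e-06) and Tsp42Ei, another, a log2 fold change of 6.25. They lie in a run of 6 adjacent genes called higher at 2R:7012254-7039050, from Tsp42Ee to CG33914, with log2 fold changes of 1.20 to 7.39. CG13135 and Rcd2 had log2 fold changes of 7.27 and 6.53. By difference in level, Arc1 and Act5C were followed by CtsL1, a lysosomal cathepsin, with 6194, 3954 and 4318 CPM in lglRNAi;RasV12-glands, against 111, 82.3 and 98.1 CPM in w1118-glands (log2 fold change 5.64 ± 0.30, adjusted p = 1.36e-07). Then came CG13947, with 4056 ± 340 CPM in lglRNAi;RasV12-glands, beside 266 ± 123 CPM in w1118-glands (log2 fold change 3.93 ± 0.32, adjusted p = 1.91e-06), and alphaTub84B, an alpha-tubulin, with 5649 ± 200 CPM in lglRNAi;RasV12-glands, beside 2452 ± 398 CPM in w1118-glands (log2 fold change 1.20 ± 0.13, adjusted p = 1.41e-05).

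The 10 largest falls by the same rule were mostly genes without an assigned name. CG32073 (-7.85, adjusted p = 9.98e-08), CG12934 (-7.25, adjusted p = 2.01e-06) and CG12522 (-6.77, adjusted p = 4.27e-06) fell furthest on the log2 scale, and CG15741, CG9826, CG8087, CG34276 and CG17283 had log2 fold changes of -6.46, -6.19, -6.12, -4.88 and -4.77. CG32071 had 4.35, 5.03 and 6.22 CPM in lglRNAi;RasV12-glands, against 281, 280 and 641 CPM in w1118-glands (log2 fold change -6.28 ± 0.71, adjusted p = 2.18e-05). This gene, CG32073 and CG12522 lie with Elo68alpha, a fatty acid elongase gene, in a run of 4 adjacent genes called lower at 3L:11101875-11108732. Ace, acetylcholinesterase, had 2.11, 2.01 and 1.68 CPM in lglRNAi;RasV12-glands, against 66.7, 44.8 and 50.6 CPM in w1118-glands (log2 fold change -4.79 ± 0.18, adjusted p = 9.44e-09). Another run of 4 called lower, at 2L:4908581-4944305, held Sgs1 with hoe1, hoe2 and synr. In all, 28 runs of at least 4 adjacent tested genes were called in 1 direction. By difference in level the largest falls were those of Sgs3, Sgs1, Eig71Ee, Sgs4 and Sgs7.

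Whether these changes differ from those of RasV12 alone was tested directly between lglRNAi;RasV12-glands and RasV12-glands. Of the 9012 genes, 182 (2.02%) were called higher and 117 (1.3%) lower, 3.32% in either direction. Of the 182, 80 were also called higher than in w1118-glands, 8 were called lower than in w1118-glands and 94 were not called against w1118. Of the 117, 43 were also called lower than in w1118-glands, 21 were called higher than in w1118-glands and 53 were not called. Both comparisons use the lglRNAi;RasV12 libraries, so these counts are not independent. Without RasV12 replicate 3 the 182 became 110, and without lglRNAi;RasV12 replicate 3 the 117 became 72.

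Several genes stood above both other groups. Trpm, a divalent cation channel, had 417 ± 29.7 CPM in lglRNAi;RasV12-glands, 147 ± 9.73 CPM in RasV12-glands and 53.6 ± 9.88 CPM in w1118-glands (log2 fold change over RasV12 1.50 ± 0.12, adjusted p = 3.05e-05). sty, the feedback inhibitor, had 122 ± 1.87 CPM in lglRNAi;RasV12-glands, 54 ± 8.65 CPM in RasV12-glands and 8.64 ± 0.964 CPM in w1118-glands (log2 fold change over RasV12 1.17 ± 0.13, adjusted p = 0.000238). scyl, the TOR inhibitor, had 2178 ± 51.5 CPM in lglRNAi;RasV12-glands, 963 ± 159 CPM in RasV12-glands and 146 ± 34.1 CPM in w1118-glands (log2 fold change over RasV12 1.18 ± 0.16, adjusted p = 0.00109). In these the order was the same, with RasV12-glands in between. Dscam1 had 22.2 ± 4.3 CPM in lglRNAi;RasV12-glands, 7.65 ± 1.89 CPM in RasV12-glands and 6.01 ± 1.44 CPM in w1118-glands (log2 fold change over RasV12 1.54 ± 0.22, adjusted p = 0.00153). Myc, short of the fold limit against w1118, had 165 ± 11.9 CPM in lglRNAi;RasV12-glands, 75.5 ± 18.5 CPM in RasV12-glands and 84.3 ± 18.6 CPM in w1118-glands (log2 fold change over RasV12 1.13 ± 0.18, adjusted p = 0.00265), although that call was lost without RasV12 replicate 2 (0.99, adjusted p = 0.0147). chinmo, a transcription factor of growth and cell fate, had 192 ± 7.41 CPM in lglRNAi;RasV12-glands, 84.7 ± 31.7 CPM in RasV12-glands and 72.9 ± 21 CPM in w1118-glands (log2 fold change over RasV12 1.18 ± 0.29, adjusted p = 0.0218), but that call was lost without lglRNAi;RasV12 replicate 1 (1.15, adjusted p = 0.0511), without lglRNAi;RasV12 replicate 2 (1.20, adjusted p = 0.0571), without lglRNAi;RasV12 replicate 3 (1.19, adjusted p = 0.0631), without RasV12 replicate 2 (1.03, adjusted p = 0.0872) and without RasV12 replicate 3 (1.02, adjusted p = 0.0876). In Dscam1, Myc and chinmo, RasV12-glands lay near w1118-glands. Pli and pio had log2 fold changes over RasV12 of 1.08 and 1.07, and for pio that call was lost without lglRNAi;RasV12 replicate 2 (0.99, adjusted p = 0.00448).

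Other genes stood below both. Eig71Ee had 3432 ± 741 CPM in lglRNAi;RasV12-glands, 7653 ± 1657 CPM in RasV12-glands and 63118 ± 10660 CPM in w1118-glands (log2 fold change over RasV12 -1.16 ± 0.21, adjusted p = 0.00553), but that call was lost without lglRNAi;RasV12 replicate 1 (-0.99, adjusted p = 0.0166). NT5E-2, a nucleotidase gene, had 404 ± 25.1 CPM in lglRNAi;RasV12-glands, 840 ± 29.4 CPM in RasV12-glands and 2079 ± 408 CPM in w1118-glands (log2 fold change over RasV12 -1.06 ± 0.14, adjusted p = 0.00076). Cyp6a17 had 0.0831 ± 0.0785 CPM in lglRNAi;RasV12-glands, 2.76 ± 0.274 CPM in RasV12-glands and 2.23 ± 1.29 CPM in w1118-glands (log2 fold change over RasV12 -4.89 ± 0.69, adjusted p = 0.00153), close to absent from lglRNAi;RasV12-glands and near each other in the other groups. CG34276 had 0.543 ± 0.0434 CPM in lglRNAi;RasV12-glands, 2.96 ± 1.52 CPM in RasV12-glands and 16.1 ± 6.25 CPM in w1118-glands (log2 fold change over RasV12 -2.45 ± 0.49, adjusted p = 0.00944).

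**Figure D5:**
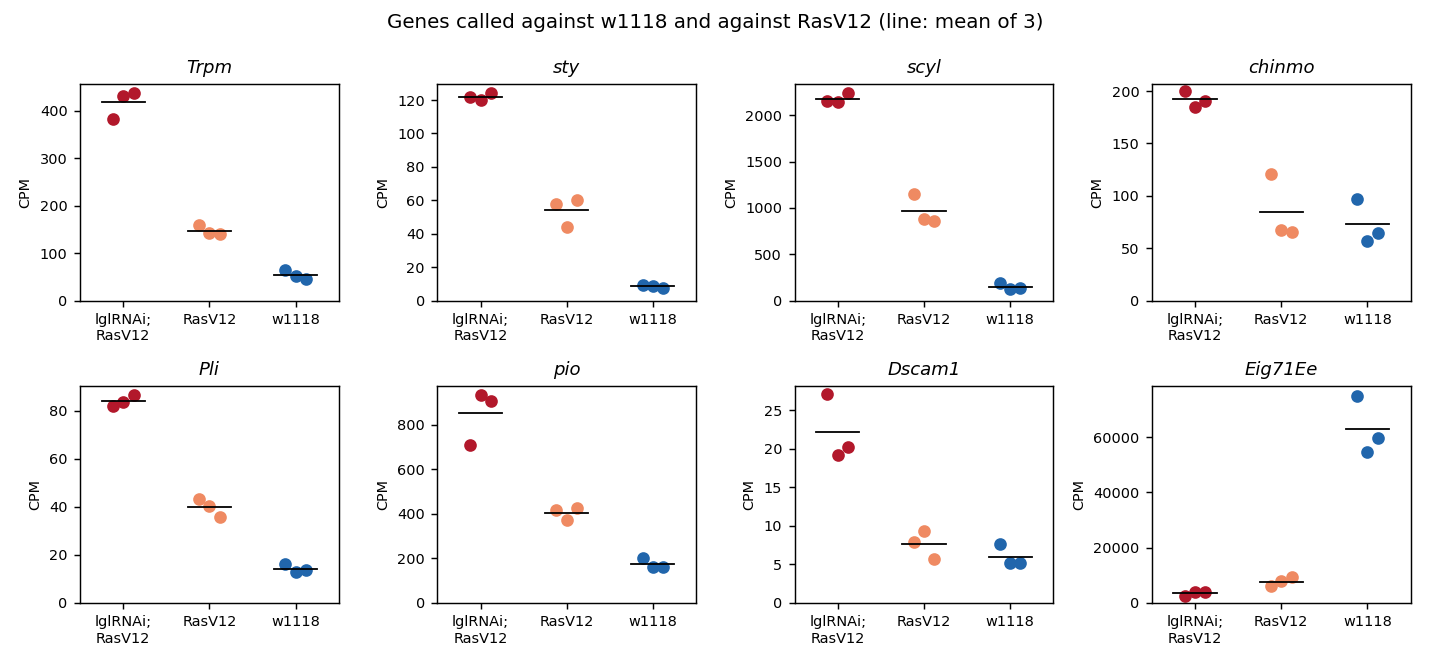
Level in CPM (linear axes from 0) of 8 genes in the 3 libraries each of lglRNAi;RasV12, RasV12 and w1118, from left to right; lines are means. In Trpm, sty, scyl, Pli and pio the lglRNAi;RasV12 libraries are highest and RasV12 in between, in chinmo and Dscam1 RasV12 lies near w1118, and in Eig71Ee lglRNAi;RasV12 is lowest.

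Most members of the groups described above were not called between lglRNAi;RasV12-glands and RasV12-glands. Mmp1 had 509 ± 223 CPM in lglRNAi;RasV12-glands, 367 ± 142 CPM in RasV12-glands and 6.65 ± 2.03 CPM in w1118-glands (log2 fold change over RasV12 0.47 ± 0.39, adjusted p = 0.461). Drs had 1650 ± 143 CPM in lglRNAi;RasV12-glands, 1532 ± 237 CPM in RasV12-glands and 6.25 ± 5.87 CPM in w1118-glands (log2 fold change over RasV12 0.11 ± 0.45, adjusted p = 0.903). Sgs3 had 45908 ± 3737 CPM in lglRNAi;RasV12-glands, 37376 ± 9771 CPM in RasV12-glands and 146246 ± 40648 CPM in w1118-glands (log2 fold change over RasV12 0.30 ± 0.24, adjusted p = 0.455). A p that misses the limit does not show that these levels are equal. Of the 8 glue genes 1 was called between the 2 genotypes, beside 3.32% of all tested genes. Of the 29 replication genes 1 was called, of the 16 Egfr list genes 1 and of the 10 JNK outputs 0. Other lists held more. Of the 61 tested cytochrome P450 genes 11 were called, of the 9 JAK-STAT genes 2 and of the 11 basement membrane genes 2.

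Markers of other cells that could cling to dissected glands were measured in the same way. For hemocytes the study reports a difference between genotypes by staining. It describes them as already recruited to the distal part of lglRNAi;RasV12-glands at the age sampled here. RasV12-glands of that age are described as free of them. Of 13 tested hemocyte markers 2 were called higher and 2 lower, beside 12.1% and 7.87% of all tested genes. By the adjusted p alone 3 were higher and 2 lower. Their log2 fold changes ran from -1.38 to 5.12, with a median of 0.08. Hml, a defining hemocyte gene, had 22.4, 5.95 and 12.6 CPM in lglRNAi;RasV12-glands, against 12.9, 4.45 and 9.4 CPM in w1118-glands. He and NimC1, also hemocyte genes, stayed below 1 CPM in every library. All 3 overlapped between groups. They were chosen after their values were seen, and the markers called higher or lower were other members of the list. The summed level of the hemocyte markers was 275.3, 174.4 and 211.7 CPM in lglRNAi;RasV12-glands, against 152, 133.1 and 163.1 CPM in w1118-glands. These sums did not overlap between groups. As shares of all counts the markers took 0.0292, 0.0186 and 0.0224 percent in the lglRNAi;RasV12 libraries. In the w1118 libraries they took 0.0111, 0.011 and 0.0136 percent. Of the fat body markers the most abundant, Lsp1gamma, a larval serum protein, had 9435, 9044 and 7399 CPM in lglRNAi;RasV12-glands, against 12300, 24717 and 12371 CPM in w1118-glands (log2 fold change -0.93 ± 0.25, adjusted p = 0.00857) and was not called, although it passed the limits without w1118 replicate 1 (-1.11, adjusted p = 0.00457) and without w1118 replicate 3 (-1.11, adjusted p = 0.00549). Muscle markers had a median of -0.50 and neuronal markers one of 0.60, which was -0.52 without lglRNAi;RasV12 replicate 1. The part of these cells in the gland values was not tested.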

How the data were processed

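Poly(A)-selected RNA of pooled salivary glands was sequenced in paired-end mode by the authors. Reads were pseudoaligned by the authors with kallisto 0.44.0 to FlyBase transcripts, and the deposited values are estimated counts and TPM per transcript. The number of larvae differed between dissected whole glands and parts, and the part libraries bear a label that names another end of the gland than the study's methods do. They entered the estimate of the spread and gave the values of 1 gene in the observations.

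Of 30503 transcripts 30279 matched a gene of the Ensembl annotation of assembly BDGP6.54, and 224 transcripts with 0.197 to 0.359% of the counts per library did not. Estimated counts, as deposited, were added up per gene (13825 genes, 12786 of them above 0 in some library) and rounded. All coordinates are from that annotation. TPM, as deposited by the authors, was summed per gene and used for no test. Counts of all 12 libraries were scaled by TMM and fitted with edgeR 4.0.16 (quasi-likelihood test, R 4.3.3), with 4 groups and a filter at a minimum count of 10. The standard error was taken from the test statistic. A gene was called at an absolute log2 fold change of at least 1 and an adjusted p of at most 0.05 (Benjamini-Hochberg). Exact permutation of 3 against 3 libraries cannot give a p below 0.1, so no such test is given. The limit that 0 counts allow, 3 counts in a library, is 0.062 to 0.098 CPM in the lglRNAi;RasV12 libraries and 0.084 to 0.109 CPM in the w1118 libraries before TMM scaling, and such limits cover counting error only. The fit was tested on simulated counts with known changes.

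Same-numbered libraries of lglRNAi;RasV12 and w1118 deviated together from their group means (r = 0.21, 0.22 and 0.18 across genes). Those of lglRNAi;RasV12 and RasV12 did not (r = -0.06, -0.32 and 0.33) and share only a number. The reported fit held the groups alone, so its p-values do not use the replicate number. A fit with the number as a block was run as an alternative. Other alternatives were RLE scaling and library size alone, no filter, a minimum count of 50, a fit of the 6 libraries compared, DESeq2 1.42.0 and leaving out each library. Leaving out the part libraries was chosen after seeing the data.

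Members and lists were chosen with earlier results of these data known. Named genes are the targeted genes, in each direction the 10 of largest fold among called genes with a mean of at least 5 CPM in the higher group and no overlap, the 5 of largest difference in CPM, and in each list the 2 called members of largest fold per direction and the most abundant one, any member being eligible in lists of at most 10. Of these only a part is described. ACC, AttA, AttB, CG33914, CG8086, CecA1, CecA2, CrebA, Drice, Dsor1, EcR, Egfr, Elo68alpha, Ets21C, Fas3, Fur2, GstD9, He, Hml, Idgf3, Jra, Lac, Lpin, Mkp3, Muc68Ca, NT5E-2, Nf1, NimC1, Rab7, Raf, SREBP, Sox14, Stat92E, Thor, Timp, Trpm, Tsp42Ee, Vinc, aop, bero, bsk, chinmo, dl, dlg1, dos, egr, fkh, grk, grnd, hep, hoe1, hoe2, hop, kek1, mew, mlt, mys, pnt, puc, rl, scrib, spi, sty, synr, vn, wgn and zip were chosen after their values were seen. Sequences are not printed.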

Additional observations from a re-analysis of the deposited data

Results flagged for a closer look

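The difference between lglRNAi;RasV12-glands and RasV12-glands was tested for each gene named in the text, and 20 passed both limits. Since both genotypes were compared with the same w1118 libraries, this is also the test of whether their changes from w1118 differ. No rule for outlying libraries was applied to the groups of 3, but each whole-gland library was left out in turn.

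The genes higher than in RasV12-glands were Trpm (log2 fold change over RasV12 1.50), Dscam1 (1.54), chinmo (1.18), scyl (1.18), sty (1.17), Myc (1.13), Pli (1.08) and pio (1.07), all described above, and CG8086 (3.44) and mlt (1.46), described in the observations. The others were Toll-4 (2.89), Ndg (1.29), CG8087 (1.39) and AttA (4.58). Toll-4 had 0.479 ± 0.0945 CPM in lglRNAi;RasV12-glands, 0.0615 ± 0.0552 CPM in RasV12-glands and 0.0145 ± 0.0251 CPM in w1118-glands, and its call was lost without any of the 3 lglRNAi;RasV12 libraries or without RasV12 replicate 2 or 3, at adjusted p of 0.0599 to 0.0714. Ndg lost its call without any of the 3 lglRNAi;RasV12 libraries or without RasV12 replicate 1 or 3, at adjusted p of 0.0501 to 0.0749. AttA had 24.9 CPM in lglRNAi;RasV12 replicate 1 and 1.09 and 2.08 CPM in the others, and without replicate 1 its log2 fold change over RasV12 was 2.02 (adjusted p = 0.132). It also lost its call without each RasV12 library, at adjusted p of 0.0541 (RasV12 replicate 1), 0.0986 (RasV12 replicate 2) and 0.0999 (RasV12 replicate 3), and in a fit of the 6 libraries alone (adjusted p = 0.0619). CG8087, lower than in w1118-glands but higher than in RasV12-glands, had 1.06 ± 0.118 CPM in lglRNAi;RasV12-glands, 0.397 ± 0.208 CPM in RasV12-glands and 73.1 ± 28.4 CPM in w1118-glands, and its call against RasV12 was lost without any lglRNAi;RasV12 library or without RasV12 replicate 1 or 3, at adjusted p of 0.0798 to 0.135. It was also lost with no filter on low counts (adjusted p = 0.052), in a fit of the 6 libraries alone (0.0608), with the replicate number as a block (0.0507) and without the libraries of the dissected gland part (0.0772).

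The genes lower than in RasV12-glands were Cyp6a17 (-4.89), CG34276 (-2.45), Eig71Ee (-1.16) and NT5E-2 (-1.06), described above, hoe1 (-1.37) and GstD2 (-1.11). GstD2 had 82.5 ± 15.5 CPM in lglRNAi;RasV12-glands, 178 ± 9 CPM in RasV12-glands and 6.1 ± 2.26 CPM in w1118-glands, so it was highest in RasV12-glands. Its call was lost without lglRNAi;RasV12 replicate 2 or 3 or without any RasV12 library, at adjusted p of 0.0527 to 0.089. hoe1 had 4.58 ± 1.13 CPM in lglRNAi;RasV12-glands, 11.8 ± 1.14 CPM in RasV12-glands and 13 ± 4.28 CPM in w1118-glands, and its call was lost without lglRNAi;RasV12 replicate 1 or 3 or RasV12 replicate 2 or 3, at adjusted p of 0.0567 to 0.0789.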

How the results depend on the processing

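Against w1118-glands scaling moved the counts of called genes most, and against RasV12-glands leaving out 1 library did. Under library size alone 1903 genes were higher and 382 lower than in w1118-glands, beside 1088 and 709 under TMM, and all 382 and all 1088 were among the genes called the same way in the other scaling. With the replicate number as a block 1085 were higher and 696 lower, of which 1067 and 680 were shared, and the block changed the call of no gene named in the text against w1118. In DESeq2 1033 and 774 genes were called. Leaving out 1 library at a time gave 961 to 1129 genes higher and 631 to 718 lower than in w1118-glands, and 110 to 160 higher and 72 to 133 lower than in RasV12-glands, where 182 and 117 were called with all libraries and 167 and 119 under library size alone. The lowest were without RasV12 replicate 3 (110 higher) and without lglRNAi;RasV12 replicate 3 (72 lower). No value changed sign among the called genes named in the text under any alternative. Named genes whose call against w1118 depends on a library or on scaling are given with those values in the report. In DESeq2 2 named genes that were called in the reported fit were not called, and only Diap1 of these is given above. The depth of 27584224 to 48540724 counts per library limits the reading of genes near 0.1 CPM, and 4813 genes had too few counts to be tested. Genotype and the number that ends the library names cannot be told apart.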

Other observations

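Among abundant genes outside the lists used above, several rose more than 16-fold. Fur2, a furin-type protease, had 1665, 1176 and 1276 CPM in lglRNAi;RasV12-glands, against 52.7, 31.3 and 34.2 CPM in w1118-glands (log2 fold change 5.12 ± 0.31, adjusted p = 2.88e-07). Idgf3, a secreted chitinase-like protein, had 2306, 1435 and 1602 CPM in lglRNAi;RasV12-glands, against 69.8, 66.1 and 61.2 CPM in w1118-glands (log2 fold change 4.76 ± 0.37, adjusted p = 1.39e-06). bero, a membrane-anchored protein, had 1002, 575 and 610 CPM in lglRNAi;RasV12-glands, against 22.8, 14.8 and 18.5 CPM in w1118-glands (log2 fold change 5.29 ± 0.39, adjusted p = 1e-06). All 3 were highest in lglRNAi;RasV12 replicate 1 and none overlapped between groups. Muc68Ca, a mucin, was lower, with 1859, 1910 and 1736 CPM in lglRNAi;RasV12-glands, against 10281, 7092 and 7602 CPM in w1118-glands (log2 fold change -2.18 ± 0.17, adjusted p = 1.38e-06).

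The genes that set lglRNAi;RasV12-glands apart from RasV12-glands were spread unevenly over the genome. Called higher than in RasV12-glands were 49 of 1625 tested genes on 2L (3.02%) and 51 of 1842 on 2R (2.77%), beside 24 of 1756 on 3L (1.37%), 36 of 2192 on 3R (1.64%) and 21 of 1512 on X (1.39%). Called lower were 1.23%, 2.23%, 1.2%, 1.23% and 0.529% of the tested genes on 2L, 2R, 3L, 3R and X. Against w1118-glands the share called higher was 12.2% on 2L, 13.4% on 2R, 12.4% on 3L, 10.3% on 3R and 12.8% on X. The UAS-l(2)glRNAi transgene is written in the genotype in the place of chromosome 2, and its insertion and the chromosome that carries it are absent from both other genotypes, so effects of that chromosome and of the hairpin cannot be told apart. If the Drs-GFP reporter was present in this genotype alone, as the published list of crosses has it, its chromosome cannot be told apart from the genotype either.

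Some genes differed sharply between the genotypes. CG8086, on 2L, had 54.9 ± 2.38 CPM in lglRNAi;RasV12-glands, 5.05 ± 1.1 CPM in RasV12-glands and 7.24 ± 1.02 CPM in w1118-glands (log2 fold change over RasV12 3.44 ± 0.25, adjusted p = 1.43e-05), and its w1118 and RasV12 libraries lay together. mlt, on 2R, had 49.3 ± 2.92 CPM in lglRNAi;RasV12-glands, 17.9 ± 1.15 CPM in RasV12-glands and 1.56 ± 0.352 CPM in w1118-glands (log2 fold change over RasV12 1.46 ± 0.12, adjusted p = 3.05e-05). Cyp6a17, on 2R, was close to absent from the whole glands of lglRNAi;RasV12 but had 4.16, 10.4 and 4.22 CPM in the 3 libraries of the dissected part of glands of the same genotype. The whole glands and the part therefore differed at a gene where the other genotypes lay near each other.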
